A study of Mus musculus with 6 samples.

Results

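Transcripts of 8 genes for secreted antimicrobial proteins of myeloid cells were followed in mouse bone marrow-derived macrophages with and without the histone methyltransferase Setd2. The genes were Lyz1, Lyz2, S100a8, S100a9, Chil3, Camp, Saa3 and Slpi, chosen by name from the 17904 genes of the deposited table, and all 8 had a row. Lyz1 and Lyz2 were selected on earlier results of these data, their near loss in the knockout libraries, so their KO against WT values are a description and support nothing further. The other 6 were added to see whether antimicrobial genes follow. Each of the 6 groups held 1 library: Setd2-KO (KO) macrophages at 0 h and after 12 and 24 h with LPS, and wild-type (WT) macrophages at the same times. LPS, lipopolysaccharide from the bacterial cell wall, was given at 100 ng/ml. All groups came from C57BL/6 mice aged 8 weeks, whose marrow monocytes were cultured with the growth factor M-CSF for 5 days. The sources used here do not describe the Setd2 allele, the driver of any Cre recombinase, or whether libraries share an animal or a culture. As each group is a single library, replicate spread is unknown and nothing below is tested.

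Lysozyme cuts the peptidoglycan wall of bacteria and is among the most abundant secreted products of macrophages. Mice carry a pair of neighbouring lysozyme genes, Lyz2 in macrophages and neutrophils and Lyz1 best known from Paneth cells of the intestine. S100A8 and S100A9 pair up as calprotectin, which withholds metal ions from microbes and acts as an alarm signal. Camp encodes the cathelicidin peptide CRAMP, Chil3 the chitinase-like lectin Ym1, Saa3 an acute-phase serum amyloid A made outside the liver, and Slpi an inhibitor of leukocyte elastase that also kills bacteria and damps LPS signalling. Lyz2, once named LysM, is also the locus into which the Cre recombinase of a widely used myeloid deleter strain was inserted. Since the sources do not say how Setd2 was deleted, loss of Setd2 and a change at the lysozyme locus itself cannot be told apart for Lyz2.

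The lysozyme pair is shown first, because its sequences decide how well reads can be assigned to each copy. Lyz2 lies at chr10:117277541-117282272 and Lyz1 at chr10:117287795-117292868 of GRCm38, both on the minus strand and 5.52 kb apart. Over their coding sequences 422 of 444 bases were equal, and 136 of 148 amino acids of the translated precursors. The first 150 coding bases, from GENCODE M21, differ at 14 positions, printed in capitals.
Lyz2: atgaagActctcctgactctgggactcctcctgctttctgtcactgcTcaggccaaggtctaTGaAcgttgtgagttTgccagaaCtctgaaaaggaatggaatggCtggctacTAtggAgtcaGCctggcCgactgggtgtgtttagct
Lyz1: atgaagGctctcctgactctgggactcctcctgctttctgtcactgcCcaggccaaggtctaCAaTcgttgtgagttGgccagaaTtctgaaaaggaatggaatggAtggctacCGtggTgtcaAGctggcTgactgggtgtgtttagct
Differences are spread along the messages, and 195 of 1214 windows of 50 bases of the Lyz1 transcript (16.1%) occurred unchanged in Lyz2. No window of either lysozyme occurred in the transcripts of any other gene. For Chil3, 29.4% of windows also occurred in other genes, its relative Chil4, listed at no more than 0.04 FPKM, and Gm6522. The share was 1.78% for Saa3, with Saa1, and 0 for S100a8, S100a9, Camp and Slpi. Reads that fall in shared windows may have been split between copies, so single-copy values of Lyz1, Lyz2 and Chil3 are uncertain. The share of windows does not bound the error of Lyz1 in WT, where Lyz2 was listed 9.66 to 12.2 times as high. How much of the Lyz1 value there came from Lyz2 reads was not tested.

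The 250 bases before the transcript starts, from RefSeq on GRCm38.p6, are shown for the lysozymes and for Saa3, the pair that differed most between genotypes and the gene that LPS raised most. Capitals mark matches on either strand to GAGGAA (a core bound by PU.1), TTGCNNAA (C/EBP factors) and GGANNTTCC (NF-kB). Lyz2 is at chr10:117282273-117282522, Lyz1 at chr10:117292869-117293118 and Saa3 at chr7:46715677-46715926, all on the minus strand.
Lyz2: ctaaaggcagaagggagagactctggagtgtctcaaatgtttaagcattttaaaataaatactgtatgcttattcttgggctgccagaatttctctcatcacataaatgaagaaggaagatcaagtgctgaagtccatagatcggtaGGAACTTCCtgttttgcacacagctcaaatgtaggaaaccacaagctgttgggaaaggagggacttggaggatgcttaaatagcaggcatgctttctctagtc
Lyz1: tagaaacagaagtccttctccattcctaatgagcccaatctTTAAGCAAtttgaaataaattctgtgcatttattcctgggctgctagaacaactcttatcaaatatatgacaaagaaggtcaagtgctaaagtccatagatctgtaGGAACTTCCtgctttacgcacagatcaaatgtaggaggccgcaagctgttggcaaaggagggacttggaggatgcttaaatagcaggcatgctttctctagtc
Saa3: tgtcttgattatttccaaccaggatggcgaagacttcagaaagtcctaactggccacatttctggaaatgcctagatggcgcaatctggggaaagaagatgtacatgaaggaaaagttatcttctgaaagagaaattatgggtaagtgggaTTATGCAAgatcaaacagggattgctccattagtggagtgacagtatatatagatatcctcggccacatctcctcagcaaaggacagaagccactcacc
The lysozyme promoters were equal at 92 of the 100 bases next to the start, and at 200 of 252 aligned positions over the whole window. Both held the same GGAACTTCC, which matches the NF-kB core on either strand, 103 bases before the start. GGANNTTCC was found in 3.59% of 32851 promoters. The C/EBP core, present in 9.56% of promoters, occurred in Lyz1, Saa3, S100a9 and Slpi and not in this window of Lyz2. GAGGAA, in 23.3% of promoters, occurred among the 8 genes in S100a8 alone, at 2 places. A match is a string of letters and shows no binding.

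Depth, cell identity and the knocked-out gene were read before the comparisons. Values are FPKM, fragment counts scaled by the authors to transcript length and to depth, so levels of different genes may be set side by side. From the spacing of low values, and with an assumed read length of 50 bases, each library held about 21830000 to 22470000 reads. Setd2 itself was at 9.96, 9.16 and 5.11 FPKM in the libraries labelled KO at 0, 12 and 24 h, and at 7.83, 8.68 and 7.51 FPKM in WT. Deletion of a few exons can leave the summed value of a gene as it was, so these levels are no check of the labels. All 12 macrophage markers, among them Csf1r, Adgre1 and Cd68, reached 1 FPKM in every library. Their summed level was 3911, 4251 and 5056 FPKM in KO at 0, 12 and 24 h, below the 4947, 5451 and 6314 FPKM in WT. Their median KO minus WT difference of log2(FPKM + 1) was 0.14, -0.44 and -0.61, beside 0.02, -0.06 and -0.12 over measured genes. Past 2-fold were 1, 1 and 2 of 12, all lower (1.26%, 0.727% and 1.93% of measured genes). These were C1qa at 0 h (-1.50) and 12 h (-1.17), and Itgam (-1.24) and Mertk (-1.01) at 24 h. In bulk RNA, fewer cells of a type and less RNA per cell cannot be told apart.

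The most abundant lysozyme message of WT macrophages was almost missing from the libraries labelled KO. Lyz2 (gene ID 17105) was at 17.7, 36.0 and 54.5 FPKM in KO at 0, 12 and 24 h, against 5502, 3903 and 9015 FPKM in WT. Every KO value was below every WT value, by far more than any change over time. In WT, Lyz2 was the 6th, 5th and 4th most abundant gene of the table, and in KO it stood at ranks 4182, 2099 and 1456. The remaining level was 0.322%, 0.921% and 0.605% of WT at 0, 12 and 24 h. On the log2(FPKM + 1) scale the differences were -8.20, -6.72 and -7.34, the lowest of all measured genes at each time. Measured genes are the 11549 with 1 FPKM or more in at least 1 library. The KO values correspond to about 491, 995 and 1552 reads, so the message was low and not at 0.

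Lyz1 (gene ID 17110), the neighbour, was low in the same libraries. It was at 10.99, 10.4 and 17.7 FPKM in KO, against 569, 321 and 870 FPKM in WT. Thus 1.93%, 3.23% and 2.03% of the WT level was left, with log2 differences of -5.57, -4.82 and -5.54, next lowest after Lyz2 at every time. The balance between the copies, as listed, differed too, though it depends on how shared reads were assigned. Lyz1 made up 38.3%, 22.3% and 24.5% of the summed FPKM of both genes in KO, against 9.38%, 7.59% and 8.80% in WT. As a sum, which is insensitive to how reads were split, the lysozymes were at 28.7, 46.3 and 72.2 FPKM in KO and at 6072, 4224 and 9885 FPKM in WT.

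Other abundant messages of WT macrophages were read beside the pair, which was itself chosen for its loss. The bound, at least 300 FPKM in WT, was chosen after the values were seen. Choosing by the WT value favours lower KO values. At 0, 12 and 24 h, 13 of 255, 4 of 252 and 4 of 250 such genes were lower by at least 2-fold in FPKM + 1, lysozymes included. Of measured genes, 1.26%, 0.727% and 1.93% were. The lowest after the lysozymes at 0 h was C1qa (-1.50), a complement subunit, at 126 FPKM in KO and 358 FPKM in WT. At 12 h it was Glrx (-1.52), a glutaredoxin, and at 24 h Itgam (-1.24), the integrin subunit CD11b. Genes beside the pair on chromosome 10 were also read. Of the 5 nearest protein-coding genes on each side, 8 were in the table and 7 were measured, and 0 of them passed a 2-fold difference at any time. Among measured genes 2.96%, 1.32% and 2.22% were higher by that rule and 1.26%, 0.727% and 1.93% lower at 0, 12 and 24 h. A count of 0 among 7 therefore says little. Their median differences were 0.09, -0.03 and -0.12 at 0, 12 and 24 h, with ranges of -0.46 to 0.92, -0.45 to 0.77 and -0.72 to 0.49. Cpsf6, 51.8 kb from Lyz1, was at 0.03, -0.03 and -0.30, and Yeats4, 53.0 kb from Lyz2, at -0.46, -0.42 and -0.10. The highest of the neighbours was Mdm2 (0.92 at 0 h), the ubiquitin ligase of p53, 396 kb away, and the lowest was Frs2 (-0.72 at 24 h), an adaptor of growth factor receptors.

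**Figure D1:**
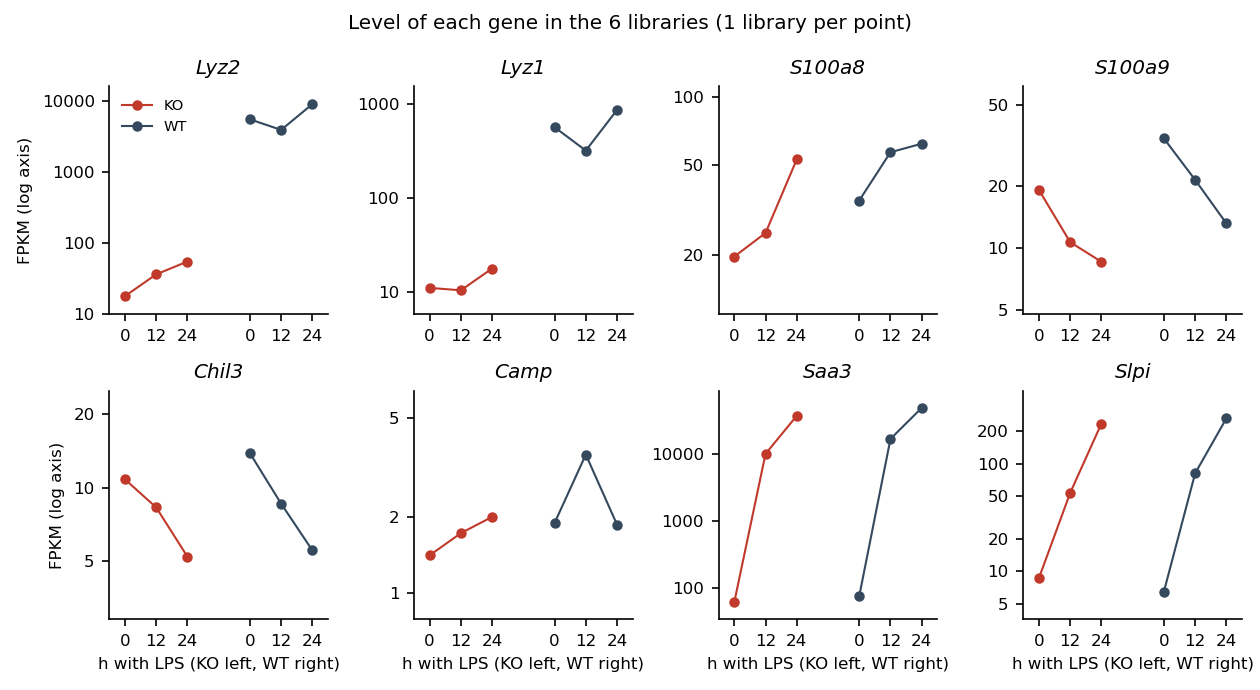
FPKM of each gene on a log axis (a different range per panel) over h with LPS, KO at the left and WT at the right of each panel, 1 library per point. Both lysozymes lie far lower in all 3 KO libraries, while the other 6 genes cover similar ranges in both genotypes.

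The other 6 genes did not share a loss of this size. At 0 h, 2 of the 8 genes were called lower, that is by at least 2-fold in FPKM + 1, namely the lysozymes, whose values chose them; 1.26% of all measured genes were called lower and 2.96% higher. At 12 h 3 of 8 were called lower, with S100a8 added, against 0.727% of measured genes lower and 1.32% higher. At 24 h it was the 2 lysozymes again, against 1.93% lower and 2.22% higher (1.37% and 2.89% after median-of-ratios scaling of the FPKM values). None of the 8 was called higher at any time. Without the lysozymes, the calls were 0, 1 and 0 of 6 genes. The median difference over these 6 was -0.31, -0.74 and -0.19 at 0, 12 and 24 h, beside 0.02, -0.06 and -0.12 over all measured genes. All 8 genes were below 0 at 12 h, and 7 of 8 at 0 and 24 h. At 12 h few measured genes were lower than S100a8 (0.511%), S100a9 (0.831%), Camp (1.87%), Saa3 (1.89%) or Slpi (3.59%). For Chil3 that share was 52.5%.

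The calprotectin genes, S100a8 and S100a9 (chr3:90669071-90670034 and chr3:90692630-90695721, 22.6 kb apart), were lower in KO by less. S100a8 was at 19.6, 24.96 and 52.9 FPKM in KO at 0, 12 and 24 h, against 34.8, 56.8 and 62.0 FPKM in WT. KO was below WT at each time, and the ranges over time overlapped. The differences of -0.79, -1.16 and -0.23 made S100a8 a call at 12 h only. S100a9 was at 19.2, 10.7 and 8.58 FPKM in KO, against 34.2, 21.5 and 13.2 FPKM in WT, with differences of -0.80, -0.94 and -0.57. It was not called at any time. Both messages are short (486 and 519 nt), and short messages in general were lower in the KO library at 0 h. The 110 genes of over 400 and up to 600 nt with a mean of at least 10 FPKM had a median of -0.73 at 0 h, -0.19 at 12 h and 0.15 at 24 h. With each library's trend over length removed, S100a8 was at -0.10, -1.03 and -0.45 and S100a9 at -0.13, -0.83 and -0.76.

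Chil3 and Camp were not called at any time. Chil3 (chr3:106147554-106167564) was at 10.8, 8.32 and 5.23 FPKM in KO and at 13.9, 8.62 and 5.55 FPKM in WT, with differences of -0.33, -0.05 and -0.07. Camp was close to the limit of measurement, at 1.41, 1.73 and 2.01 FPKM in KO and at 1.90, 3.57 and 1.87 FPKM in WT. These values rest on about 22 to 55 reads per library, with a counting error of 13.4% to 21.4%. The Camp difference was -0.27, -0.74 and 0.07. Camp (chr9:109847377-109849456) also lies 683 kb from Setd2.

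Saa3 and Slpi, both strongly raised by LPS, were also compared. Saa3 lies at chr7:46711998-46719615 and Slpi at chr2:164354070-164356507. Saa3 was at 61.4, 10221 and 37989 FPKM in KO, against 75.3, 17094 and 49931 FPKM in WT, and was lower in KO by 0.29, 0.74 and 0.39 on the log2 scale. In WT at 24 h it was the most abundant gene and took 8.96% of the FPKM total, against 6.53% in KO at that time. Slpi was at 8.68, 53.5 and 235 FPKM in KO, against 6.5, 81.2 and 263 FPKM in WT. Its differences of 0.37, -0.59 and -0.16 changed side between 0 h and the later times. With the length trend removed Saa3 stood at 0.37, -0.61 and -0.63, so that its sign at 0 h turned, and Slpi at 0.80, -0.50 and -0.40.

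**Figure D2:**
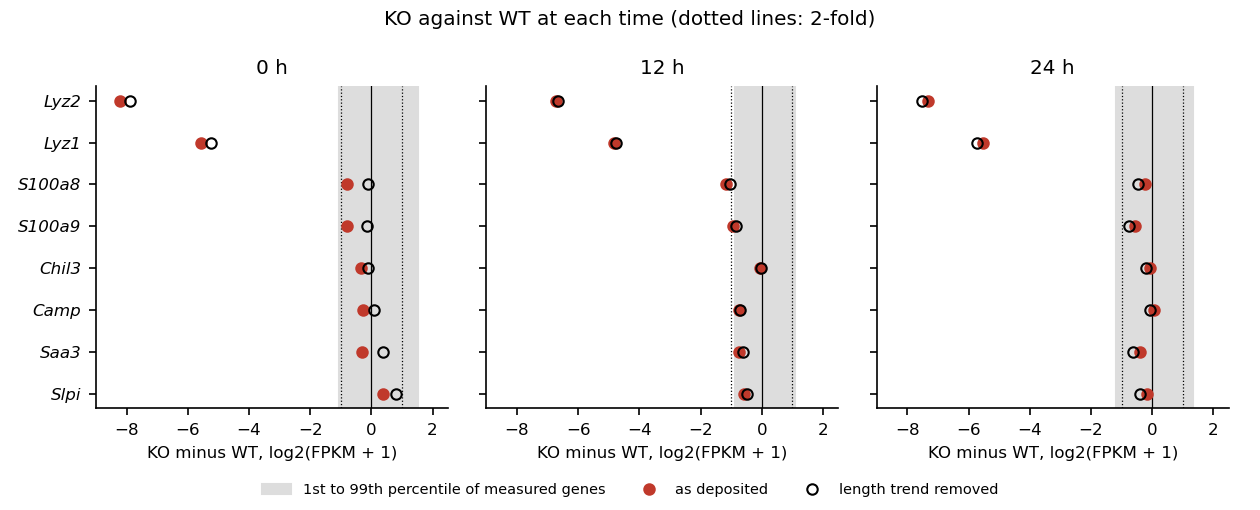
KO minus WT on the log2(FPKM + 1) scale for each gene at 0, 12 and 24 h, filled as deposited and open with the trend over transcript length removed, where grey spans the 1st to 99th percentile of measured genes. Lyz2 (-8.20 at 0 h) and Lyz1 (-5.57 at 0 h) lie far outside the grey, S100a8 (-1.16) and S100a9 (-0.94) at 12 h just outside, and the other deposited values within it.

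Saa3 and Slpi were far higher with LPS than at 0 h in both genotypes, and S100a9 was lower at 24 h in both. After 12 h, 2 of 8 genes were called higher and 0 lower in KO (8.63% of measured genes higher and 17.5% lower), and likewise 2 higher and 0 lower in WT (9.64% and 17.4%). These were Saa3 and Slpi in both. After 24 h, 4 were called higher and 1 lower in KO (7.55% and 21.6%), and 2 higher and 2 lower in WT (7.65% and 13.9%). After median-of-ratios scaling the higher and lower shares of measured genes were closer to each other. They were 12.1% and 9.75% in KO and 12.8% and 11.1% in WT at 12 h. At 24 h they were 13.1% and 11.8% in KO and 10% and 9.07% in WT. The counts of the 8 genes above are from unscaled values, and counts that changed with scaling are in the closing section. The responses at 12 and 24 h of a genotype share their 0 h library.

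Saa3 responded by 7.36 and 9.25 (log2) at 12 and 24 h in KO, and by 7.81 and 9.35 in WT. At 24 h no measured gene had a higher response than Saa3 in either genotype. As a ratio of FPKM this was 619-fold in KO and 663-fold in WT. Slpi responded by 2.49 and 4.61 in KO, and by 3.45 and 5.14 in WT, or 27.1-fold in KO and 40.4-fold in WT at 24 h. S100a8 and S100a9 moved apart. S100a8 responded by 0.33 and 1.38 in KO and by 0.69 and 0.82 in WT, past 2-fold at 24 h in KO as deposited. WT also passed at 24 h under median-of-ratios (1.12) or trimmed-mean scaling (1.09), and without the length trend WT passed (1.15) and KO did not (0.80). S100a9 responded by -0.79 and -1.07 in KO and by -0.65 and -1.31 in WT, called lower at 24 h in both. The KO call was lost under either scaling of the FPKM values or with a pseudocount of 5 (-0.83), and the WT call without the length trend. The ratio of S100a8 to S100a9 FPKM was thus 1.02, 2.33 and 6.16 at 0, 12 and 24 h in KO, and 1.02, 2.64 and 4.70 in WT. The partner genes of calprotectin began at equal FPKM and parted in both genotypes. Chil3 responded by -0.35 and -0.93 in KO and by -0.63 and -1.18 in WT, past 2-fold at 24 h in WT as deposited. The WT call was lost under median-of-ratios (-0.90) or trimmed-mean scaling (-0.93) or with a pseudocount of 5 (-0.84), and KO passed without the length trend (-1.14) or with a pseudocount of 0.1 (-1.04). Camp responded by 0.18 and 0.32 in KO and by 0.66 and -0.02 in WT.

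The small amount of Lyz2 left in KO was higher at 24 h than at 0 h. It responded to LPS by 0.98 at 12 h and by 1.57 at 24 h in KO, against -0.50 and 0.71 in WT. At 12 h the KO value just missed a call, and passed it under either scaling (1.36 and 1.38). The response at 12 h thus differed by 1.48 between genotypes, the 1 call among the 8 genes there (1.65% of measured genes called higher and 3.14% lower). At 24 h the difference of responses was 0.85, and 0 of 8 were called (4.04% and 8.63% of measured genes, or 6.30% and 6.36% after trimmed-mean scaling). Under median-of-ratios scaling Lyz2 passed at 24 h (1.01), with 6.5% and 6.15% of measured genes called. Lyz1 responded by -0.08 and 0.64 in KO and by -0.83 and 0.61 in WT. Slpi had the lowest difference of responses, -0.96 at 12 h and -0.53 at 24 h, and passed 2-fold at both times without the length trend (-1.30 and -1.20). From 12 to 24 h both lysozymes gained in WT, Lyz2 by 1.21 and Lyz1 by 1.44, and with Saa3 (1.55) and Slpi (1.68) they made 4 of 8 called higher there (1.82% of measured genes). In KO, S100a8 (1.05), Saa3 (1.89) and Slpi (2.12) were called over that interval, 3 of 8 against 4.78%, of which S100a8 was lost without the length trend (0.24) or with a pseudocount of 5 (0.95), while Lyz2 (0.59) and Lyz1 (0.72) were not. No gene of the 8 was called lower from 12 to 24 h in KO (7.67% of measured genes) or in WT (3.79%).

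**Figure D3:**
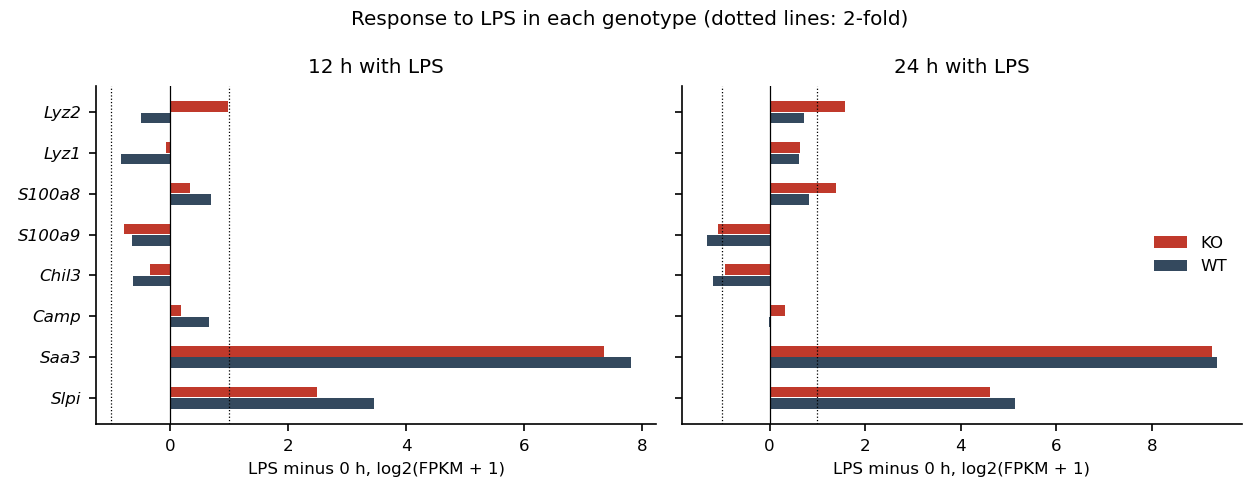
Difference of log2(FPKM + 1) between LPS and 0 h at 12 h (left) and 24 h (right), KO bar above WT bar, 1 library each. Saa3 and Slpi extend far to the right in both genotypes, S100a9 and Chil3 lie to the left, and Lyz2 at 12 h points right in KO (0.98) and left in WT (-0.50).

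The order of levels shows how unequal these genes are, since FPKM is per length. In KO at 0 h, Saa3 was highest at 61.4 FPKM, Lyz2, S100a8 and S100a9 lay close together at 17.7 to 19.6 FPKM, Lyz1, Chil3 and Slpi at 8.68 to 10.99 FPKM, and Camp lowest. In WT at 0 h, Lyz2 (5502 FPKM) and Lyz1 (569 FPKM) stood first, followed by Saa3, then S100a8 and S100a9 at 34.8 and 34.2 FPKM. At 24 h Saa3 led in both genotypes. It was followed in KO by Slpi (235 FPKM) and Lyz2 (54.5 FPKM), and in WT by Lyz2 (9015 FPKM), Lyz1 (870 FPKM) and Slpi (263 FPKM). Without replicates, close neighbours in this order cannot be ranked.

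Genes with the most similar profile were named by the mean absolute difference, over the 6 libraries, of log2(FPKM + 1) after each gene's mean was taken off, among 8508 genes that reached 5 FPKM. For Lyz2 the nearest was Lyz1, at 1.05, and then a wide gap to Fabp4 at 2.95, a carrier of fatty acids, with F13a1 next, a coagulation factor subunit of monocytes. Lyz1 had the same neighbours. The nearest match of each other gene was at a smaller distance, but this distance depends on how much a gene varied. The mean absolute deviation of a gene from its own mean was 3.71 for Lyz2, 2.66 for Lyz1 and 3.75 for Saa3. For the rest it was 0.20 (Camp) to 1.74 (Slpi). Both lysozymes were chosen for their low KO values and may share reads, so their likeness supports nothing further. S100a8 was nearest to Ms4a7 (0.20), S100a9 to Trf (0.12), the iron carrier transferrin, then Sepp1 and Gpnmb, and Chil3 to Tusc3 (0.08). Camp was nearest to Dtnb (0.11). Saa3 was nearest to Fpr1 (0.71), a receptor for bacterial peptides, then to the complement factor gene Cfb and to Il1b, and Slpi to Pilrb1 (0.23), then H2-M2 and Ly6i.

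Relatives and functional neighbours of the 8 genes were mostly not called between genotypes, and neither were measured genes in general. At 0, 12 and 24 h, 1.26%, 0.727% and 1.93% of measured genes were called lower and 2.96%, 1.32% and 2.22% higher. Of the other lysozyme-type genes, 1 of 8 was in the table, Lyzl4, at up to 3.55 FPKM (-0.71, 0.11 and 0.29). Of 14 other S100 genes 6 were measured, with medians of -0.75, 0.07 and 0.76 at 0, 12 and 24 h. Without the length trend these medians were -0.16, 0.18 and 0.52. S100a10, the partner of annexin A2, was the 1 call, higher at 24 h by 1.04 (395 FPKM in KO and 192 FPKM in WT). That call was lost without the length trend (0.80). S100a4, highest of the family at 0 h, was at 878 FPKM in KO and 1727 FPKM in WT then (-0.97). Chitinase relatives (2 of 8 measured, Chid1 and Ctbs) had medians of 0.24, -0.01 and -0.03, with 0 called.

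Of 10 acute-phase genes 8 were measured, with medians of -0.06, -0.20 and 0.22 and 0 called lower. Hamp, which encodes the iron hormone hepcidin, was called higher at 12 h (2.28) and 24 h (1.43), and the pentraxin gene Ptx3 at 12 h (1.81). These calls rest on low levels. Hamp was at 11.7 FPKM in KO and 1.62 FPKM in WT at 12 h, and at 1.69 and 0 FPKM at 24 h. Ptx3 was at 4.70 FPKM in KO and 0.62 FPKM in WT at 12 h. Lcn2, which binds bacterial siderophores, was called higher with LPS in both genotypes, at 6.21, 379 and 623 FPKM in KO and at 7.45, 444 and 566 FPKM in WT. The haptoglobin gene Hp was called likewise, at 1.23, 67.1 and 144 FPKM in KO and at 1.40, 75.8 and 153 FPKM in WT. In response to LPS 5 of the 8 were called higher in KO at both 12 and 24 h, and 5 and 4 in WT. None was called lower in KO, and in WT Pglyrp1, a peptidoglycan recognition protein, was called lower at 12 h (-1.04) and 24 h (-1.05). Pglyrp1 reached at most 1.51 FPKM, and both of its calls were lost without the length trend (-0.75 and -0.84). Higher calls made up 8.63% and 7.55% of measured genes in KO and 9.64% and 7.65% in WT. Of 16 genes for protease inhibitors of the WAP, cystatin and serpin families 9 were measured, with medians of -0.14, -0.13 and 0.46. At 12 h Serpinb1a, an inhibitor of neutrophil proteases, was called higher (1.29, at 3.31 FPKM in KO and 0.76 FPKM in WT) and Serpinb2 lower (-1.08). At 24 h Wfdc18 (1.17) and Stfa3 (1.12) were called higher from at most 2.04 FPKM. Neither of these 24 h calls held without the length trend (0.97 and 0.92).

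Of 20 genes of the phagosome and of microbial killing, all were measured, with medians of 0.03, 0.16 and 0.15. Acod1, which makes itaconate, was called higher in KO at 0 h (1.13), with the interferon-induced GTPases Gbp2 (1.37), Irgm1 (1.60) and Irgm2 (1.32). The inducible nitric oxide synthase gene Nos2 (1.22) and Rnase6 (1.08, at 2.56 FPKM in KO and 0.68 FPKM in WT) were called higher at 12 h. Cybb, the core of the phagocyte oxidase, was called lower at 24 h (-1.09, and 383 FPKM in KO against 816 FPKM in WT). The Cybb call was lost without the length trend (-0.85). Among 15 myeloid transcription factors, 13 were measured, with medians of 0.13, -0.19 and -0.15. Spi1, which encodes PU.1, a factor needed for lysozyme transcription, was at 293, 421 and 369 FPKM in KO and at 311, 373 and 359 FPKM in WT. Cebpa had 108, 17.1 and 26.3 FPKM in KO and 153, 23.3 and 32.4 FPKM in WT. Cebpb had 38.5, 237 and 364 FPKM in KO and 44.1, 212 and 239 FPKM in WT. Ets2 was called higher at 0 h (1.43), and Cebpd lower at 24 h (-1.30), with 9.24 FPKM in KO and 24.3 FPKM in WT.

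**Figure D4:**
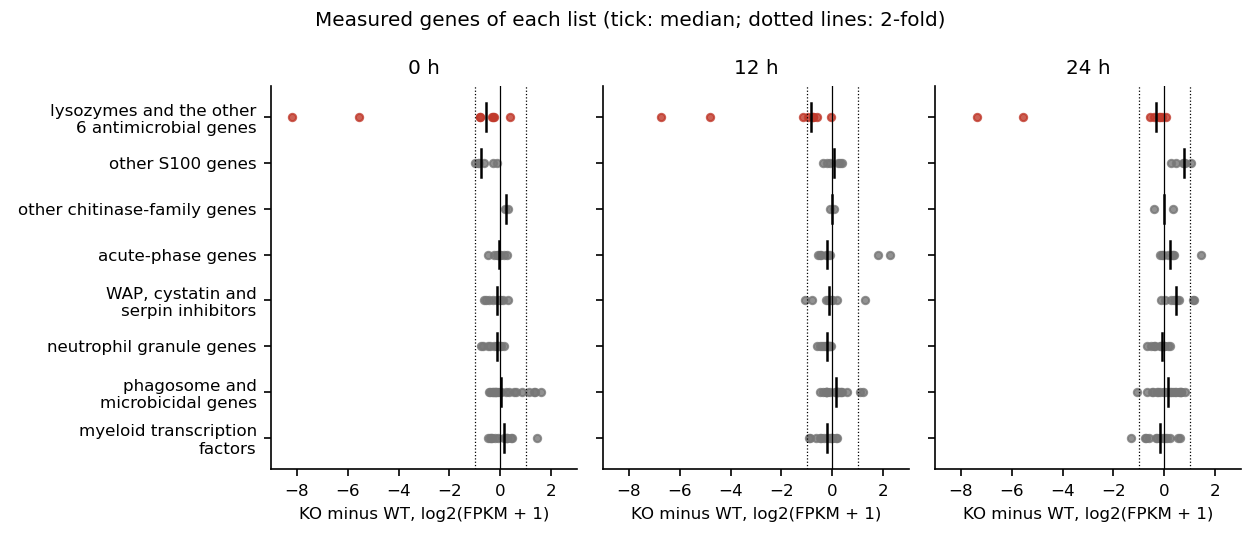
KO minus WT on the log2(FPKM + 1) scale for the measured genes of each list at 0, 12 and 24 h, with a tick at each list's median. The 8 antimicrobial genes are in the top row, where the lysozymes are the only points beyond -2, while genes of the other lists lie between -1.30 and 2.28.

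S100a8, S100a9, Camp and Lyz2 are also neutrophil genes, so neutrophil transcripts were read beside them. Of 18 neutrophil granule genes 12 were measured, with medians of -0.13, -0.21 and -0.11 and 0 called in either direction at any time. Of all measured genes, 1.26%, 0.727% and 1.93% were called lower and 2.96%, 1.32% and 2.22% higher. Low genes are hard to call because 1 is added to FPKM, as with Elane at 0 h (-0.76) and Ngp at 24 h (-0.67). The count of 0 therefore says little about neutrophil content. Ngp, a granule protein, was at 9.07, 3.02 and 0.36 FPKM in KO and at 9.66, 3.56 and 1.17 FPKM in WT. Elane, the elastase that Slpi inhibits, was at 0.90, 0.16 and 0.00 FPKM in KO and at 2.21, 0.53 and 0.10 FPKM in WT. The 11 neutrophil markers summed to 39.96, 91.2 and 79.3 FPKM in KO and to 43.8, 92.1 and 91.1 FPKM in WT. Most of the sum was Csf3r at 12 h (71.6 FPKM in KO and 68.2 FPKM in WT). Mmp8 was the largest part at 24 h (47.35 and 47.26 FPKM). Of the 8 measured, 3 were called higher and 3 lower with LPS in KO at 24 h (7.55% and 21.6% of measured genes). In WT it was 3 and 4 (7.65% and 13.9%). Ly6g was listed at 0 in KO at 0 h and at no more than 3.26 FPKM elsewhere. The part of such cells in the S100a8, S100a9 and Camp differences was not tested. Markers of T and NK cells, B cells, mast cells, eosinophils and red cells summed to 3.52 FPKM or less per list in every library. Fibroblast markers lay between 6.35 and 11.9 FPKM, megakaryocyte markers between 15.9 and 25.3, dendritic cell markers between 28.8 and 56.3, osteoclast markers between 32.3 and 145, and monocyte markers between 46.3 and 568 FPKM.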

How the data were processed

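Per the labels, RNA of cultured macrophages was sequenced on the BGISEQ-500 platform. The deposited table holds FPKM values by the authors, per the file headers, and Bowtie2, RSEM and the build GRCm38 are named in the submitters' processing notes, without versions or settings. Of 17905 rows, 1 names no gene and was left out. For 25 rows whose symbol has the form of a date, the symbol was looked up by gene ID. In the KO 0 h column 2 cells (Cd36 and Cers5) are not numbers and were read as missing. The members and the gene lists were chosen with earlier results of these data known.

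Differences were taken between values of log2(FPKM + 1), which understates changes of low genes, and a gene that reached 1 FPKM in a library was called at 2-fold. The calling script was tested on simulated data with known changes, which says nothing of replicate error. No p-value was computed, since each group holds 1 library. Read numbers come from the spacing of low FPKM values with an assumed read length of 50; they are approximate, and the counting error is 1 over the root of the reads. Transcript lengths (for 99.0% of measured genes) and transcript sequences came from GENCODE M21, and promoters and coordinates from RefSeq GRCm38.p6, which matched all 8 genes. A lowess curve (span 0.3, statsmodels 0.14.6) over transcript length, using genes whose mean reached 10 FPKM, gave the values without the length trend. Named genes were the 8, list members called between genotypes or with LPS or with the largest difference, the 5 nearest genes on each side of the lysozymes and the 3 with the most similar profile. Spi1, C1qa, Glrx, Itgam and Mertk were added after their values were seen. Alternatives were pseudocounts, minimum FPKM, fold rules, 2 scalings of the FPKM values, the length trend, and the summed lysozymes. Count-based tests were not used, because the files analysed here hold FPKM only.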

Additional observations from a re-analysis of the deposited data

Results flagged for a closer look

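Lyz2 moved in opposite directions with LPS in the genotypes at 12 h, by 0.98 in KO and by -0.50 in WT, a difference of 1.48 (log2) that was not tested. The WT value of Lyz2 was -0.13 without the length trend, and the median measured gene as deposited was at -0.28 in WT. Camp also moved in opposite directions, at 24 h, by 0.32 in KO and by -0.02 in WT. That difference of 0.34 was not tested and rests on about 22 to 32 reads per library. The WT value of Camp was above 0 under either scaling (0.18 and 0.16) or without the length trend (0.17).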

How the results depend on the processing

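The lysozyme differences between KO and WT kept their direction and stayed past 2-fold under every alternative run. No value called at 2-fold changed sign, but 17 uncalled ones did under at least 1 alternative, 13 of them without the length trend. Among these were, without the length trend, Saa3 (0.37) and Camp (0.08) in KO against WT at 0 h, and Chil3 at 12 h under median-of-ratios (0.01) and trimmed-mean scaling (0.02). Counts of the 8 genes called did change. With a 1.5-fold rule, 4 were called lower in KO against WT at 0 h and 7 at 12 h (7.79% and 3.74% of measured genes). With LPS in KO, 1 and 2 were lower at 12 and 24 h (36.3% and 40%). With LPS in WT, 4 were higher and 3 lower at 12 h (15.7% and 34.2%), and 5 higher at 24 h (12.6%). From 12 to 24 h the 1.5-fold rule called 5 higher in KO (14.2% of measured genes) and 2 lower in WT (10.1%). For the difference of responses it called 2 higher and 1 lower at 12 h (7.12% and 12.2%) and 1 higher at 24 h (13.6%). With a 3-fold rule, 2 were higher and 0 lower in KO at 24 h (4.3% and 8.43%), and 0 lower in WT at 24 h (5.76%). The same rule called 1 higher from 12 to 24 h in WT (0.355%), and 0 higher for the 12 h difference of responses (0.433%). With a pseudocount of 0.1, 5 were lower in KO against WT at 12 h and 2 in KO at 24 h. It also gave 1 lower (Slpi) for the 12 h difference of responses. A pseudocount of 5 gave 0 lower in KO and 1 lower in WT at 24 h. Over all genes, calls in KO against WT became more frequent with 0.1 and rarer with 5, in both directions at each time. Changed counts of the 8 were therefore not told apart from a looser or stricter rule. At 24 h, median-of-ratios scaling gave 0 lower in KO (11.8% of measured genes), and 4 higher and 1 lower in WT (10% and 9.07%). It gave 1 higher (Lyz2) for the 24 h difference of responses (6.5%). Trimmed-mean scaling gave 0 lower in KO (12.4%) and 1 lower in WT (9.31%) at 24 h. Without the length trend, 2 were lower in KO and 1 in WT at 24 h, 4 higher in WT at 12 h, 1 lower from 12 to 24 h in KO and in WT (S100a9), and 1 lower (Slpi) for the difference of responses at 12 h and at 24 h. No share of measured genes is given for the counts without the length trend or with the other pseudocounts. Those counts therefore do not show whether the 8 differ from genes in general. The cause of the changed counts was not tested. A minimum of 5 FPKM, which leaves out Camp, and no minimum moved no count of the 8 genes by over 1.5 times; over all genes the minimum of 5 FPKM moved 4 of 22 counts by more than that, among them those lower in KO against WT, 88 at 0 h and 39 at 12 h, against 146 and 84 with the minimum of 1 FPKM. The scalings shifted the median gene, over those averaging 5 FPKM or more, by 0.26 to 0.45 with LPS, and by 0.14 and 0.13 for KO against WT at 24 h.

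No paired analysis was possible because each group holds 1 library, and for the same reason no library was left out in turn. Depth limits Camp, at about 22 to 55 reads. Lyz1 and Lyz2 share 195 windows of 50 bases, and their sum also stayed past 2-fold at each time.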
